A study of Mus musculus with 5 samples.

Results

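The Hedgehog pathway was followed in mandibular condyle cartilage of mice labelled as knockout for discoidin domain receptor 1 (Ddr1) and of wild-type mice. Its 7 members are the ligand Ihh, the receptor Ptch1, the signal transducer Smo, the decoy receptor Hhip and the transcription factors Gli1, Gli2 and Gli3. They were taken by name, as the rows of the deposited table whose platform annotation gives exactly 1 gene symbol, and each was measured by 1 row. All 7 were among the 19938 genes tested, and no filter on low signals was applied to them. The 2 groups were 2 mice labelled DDR-1-KO, here called knockout 2 and knockout 5, and 3 wild-type mice, here called wild type 3, 4 and 6. Both groups carry the strain label 129/Sv and the same tissue label, the cartilage of the jaw joint's condyle, from which RNA was extracted directly. Each array is labelled with a mouse of its own. The labels say nothing of age, sex, treatment or the way the Ddr1 allele was made. They do not say either whether the mice were littermates. The p-values of the main test rest on the spread between these 5 arrays, moderated toward a value drawn from all genes.

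Hedgehog ligands are secreted proteins that bind Ptch1, a membrane protein that otherwise keeps Smo inactive. Once released, Smo acts in the primary cilium and changes the processing of Gli2 and Gli3, of which Gli2 mainly activates and Gli3 mainly represses target genes. Gli1, Ptch1 and Hhip are themselves target genes of the pathway, and their transcripts are often used as a readout of it. In growing cartilage, Ihh is made by chondrocytes that are about to become hypertrophic, and it acts on neighbouring chondrocytes and on the perichondrium.

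Promoter sequence from RefSeq (GRCm38.p6) was found for 6 of the 7 members, the table used here having no entry for Gli1. The windows examined were the 250 bases before the listed transcription start. Those of Ihh and Gli3 are printed because Ihh is the pathway's ligand in this tissue and Gli3 is the Gli factor whose knockout values lay above all wild-type values, while those of Gli1 lay below. The start is also the outer edge of the gene for these 2 genes. The core of the Gli binding site, ACCACCC on either strand, is in neither window, so both are in lower case throughout.
Ihh, GRCm38.p6 chr1:74951673-74951922, minus strand: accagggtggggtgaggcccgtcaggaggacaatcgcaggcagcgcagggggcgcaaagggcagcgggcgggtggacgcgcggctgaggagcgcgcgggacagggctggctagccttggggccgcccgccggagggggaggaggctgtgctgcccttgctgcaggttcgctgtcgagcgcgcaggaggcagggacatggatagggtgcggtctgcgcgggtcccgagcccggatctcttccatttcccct
Gli3, GRCm38.p6 chr13:15463473-15463722, plus strand: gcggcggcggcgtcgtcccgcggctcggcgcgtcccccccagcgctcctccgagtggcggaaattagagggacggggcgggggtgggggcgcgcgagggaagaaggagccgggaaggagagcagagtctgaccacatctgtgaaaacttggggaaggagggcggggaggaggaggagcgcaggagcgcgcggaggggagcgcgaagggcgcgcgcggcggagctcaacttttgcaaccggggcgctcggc

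The longer Gli site GACCACCCA, searched on both strands, was in none of the 6 windows and in 0.225% of all 32851 promoter windows. The core ACCACCC, which the longer site contains, was in 1 of the 6 and in 3.92% of all windows. That window was the one of Gli2, whose listed start, like those of Hhip and Ptch1, is not the outer edge of the gene. In it the core lies on the reverse strand 205 bases before the listed start. Its surroundings, with the core in capitals, are shown as the single match.
Gli2, GRCm38.p6 chr1:119053806-119053835, minus strand: atccccctccaGGGTGGTgtccccccaccc

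The GC box GGGCGG, also searched on both strands, was in 5 of the 6 windows, all but that of Smo, and in 32.7% of all windows. The members' windows held 67.2% (Gli2) to 78.4% (Ptch1) G and C, above the median of 52.4% over all windows, and between 15 and 41 CG pairs against a median of 6. A TATAAA box was in none of the 6 and in 12.4% of all windows. These matches describe the letters of the windows.

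Signals are log2 RMA values, and a change is the knockout mean minus the wild-type mean, so that 1 unit is a doubling. Genotypes were compared with limma over all genes tested, with Benjamini-Hochberg adjustment and a threshold of 0.05. Over all genes 309 rose (1.55%) and 435 fell (2.18%). In both directions together that was 3.73% of the genes. Of the 7 members 1 fell and 6 did not pass the test. The wild-type arrays were alike, correlating at 0.984 to 0.993 across genes, while the knockout arrays stood apart from them and from each other. Knockout 2 correlated with wild type at 0.81 to 0.84 and knockout 5 at 0.90 to 0.93. Between the knockout arrays the correlation was 0.803, below that of either with wild type. The gene values spread less in the knockout arrays, with standard deviations of 0.802 and 0.906, than in wild type, with 0.991 to 1.02. Arrays also carry 2 dates in their file names, the first on knockout 2 and wild type 3 and the second on the others, and what was done on these dates is not given. Ddr1, the gene named in the knockout label, had a signal of 5.96 in knockout 2, 5.80 in knockout 5 and 6.02 in all wild-type mice (change -0.14, limma adjusted p = 0.377). Probe positions were not used here, so Ddr1 does not check the labels.

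Gli1, the zinc finger transcription factor that is itself a target of the pathway, was the member that fell. Its signal was 5.85 in knockout 2 and 5.83 in knockout 5, and 6.41 in wild type 3, 6.46 in wild type 4 and 6.41 in wild type 6. Both knockout arrays lay below all wild-type arrays, by a gap of 0.56 at the nearest, while the knockout values differed by 0.011 and the wild-type values by at most 0.051. The change was -0.58 (SE 0.025, 95% interval -0.66 to -0.51, limma adjusted p = 0.015), from a mean of 6.42 ± 0.029 (SD, n = 3) to 5.84 ± 0.0077 (SD, n = 2). On the linear scale the knockout signal was 0.667 of the wild-type signal. Within the first date the difference was -0.56 and within the second -0.60. Wild types 3 and 6 held the identical value, so the SE rests in part on identical values, whose spread of 0 says nothing about mice. The exact permutation test over the 5 arrays gave p = 0.1 two-sided, the smallest that 2 against 3 arrays allow.

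The call for Gli1 depended on how arrays were scaled and on which were kept. The change was -0.39 after cyclic loess (limma adjusted p = 0.107), -0.43 after quantile normalisation (adjusted p = 0.0885) and -0.37 once each array was centred and scaled (adjusted p = 0.125), the last over 1.5 times smaller than as deposited. With the array date as a block it was -0.58 (adjusted p = 0.0534). Leaving out wild type 3, 4 or 6 gave limma adjusted p = 0.106, 0.13 and 0.179 with changes from -0.59 to -0.57. In all 18 alternatives the change stayed below 0. It did not pass the threshold in 8 of them, array weights included (change -0.59). The fits without knockout 2 or without knockout 5 leave 1 knockout array, so only their changes are given (-0.59 and -0.58).

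**Figure D1:**
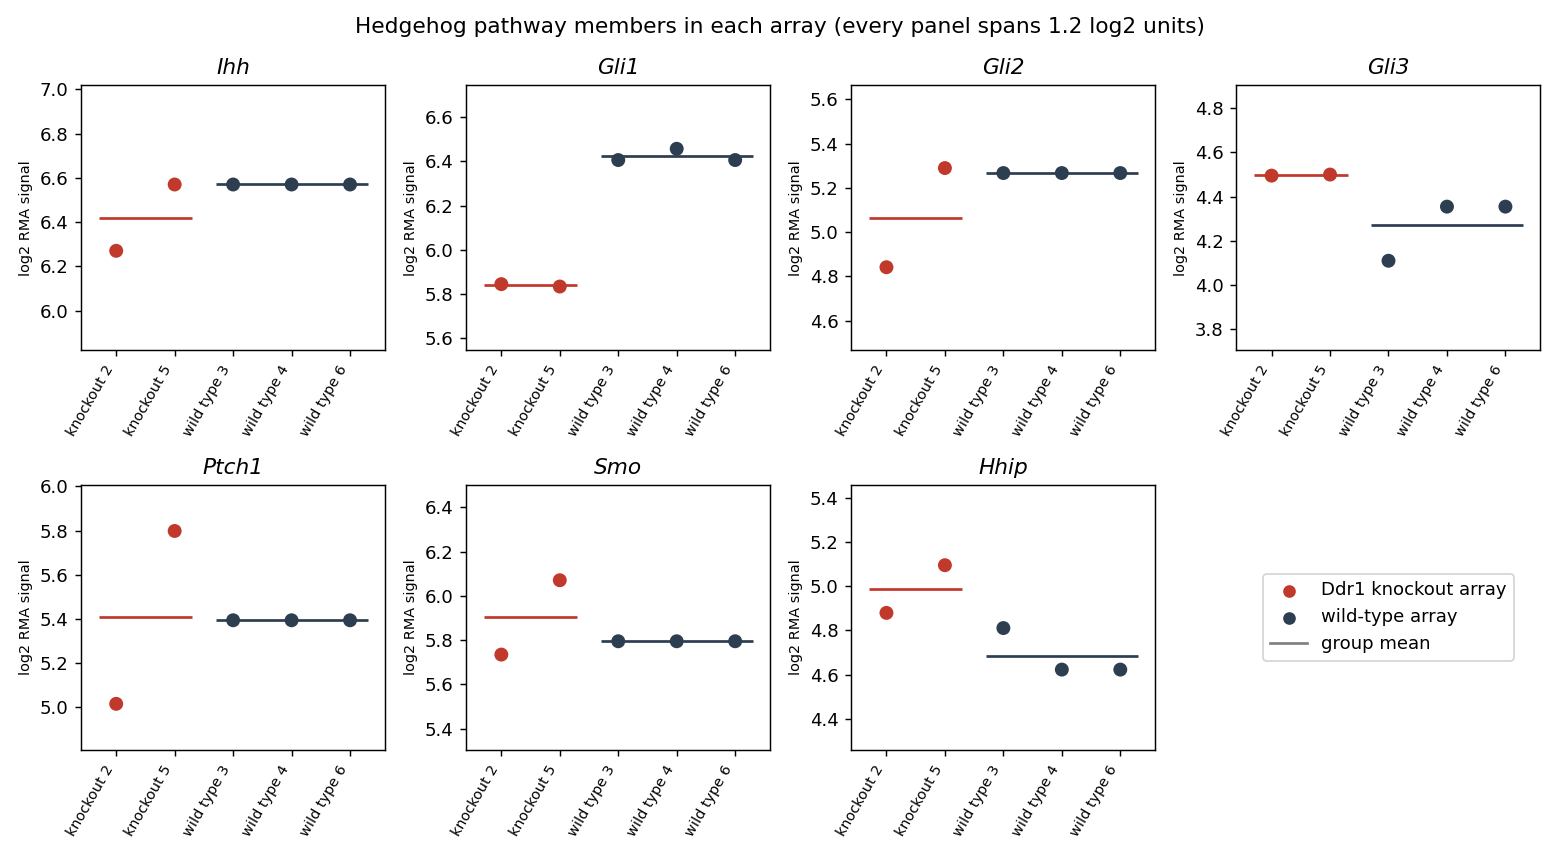
Each panel plots the log2 RMA signal (vertical axis, 1.2 log2 units in every panel) of a Hedgehog member in the 5 arrays (horizontal axis), with knockout arrays in red, wild-type arrays in dark blue and lines at the group means. Gli1 lies between 5.83 and 5.85 in knockout and between 6.41 and 6.46 in wild type, while for Gli2, Ptch1 and Smo the knockout arrays fall on either side of 3 identical wild-type values.

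Ihh, the ligand made by prehypertrophic chondrocytes, had a signal of 6.27 in knockout 2 and of 6.57 in knockout 5 and in each of the 3 wild-type mice. Knockout 2 was thus the array that differed, and knockout 5 shared the wild-type value. The change was -0.15 (SE 0.102, 95% interval -0.44 to 0.15, limma adjusted p = 0.399), with -0.30 within the first array date and 0 within the second. The sign turned to 0.022 after quantile normalisation, 0.082 by cyclic loess and 0.12 once each array was centred and scaled, none of them past the threshold. Over all genes tested, knockout 2 was the array that differed from 4 identical values in 2128 (10.7%), lower in 1182 of them and higher in 946.

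Ptch1, the receptor of Hedgehog ligands and a target gene, had a signal of 5.02 in knockout 2 and 5.80 in knockout 5, and of 5.39 on all 3 wild-type arrays. Knockout 2 lay below and knockout 5 above wild type, 0.78 apart. The change was 0.013 with a 95% interval from -0.75 to 0.77 (limma adjusted p = 1), which is too wide to tell a fall as large as that of Gli1 from no change. Within the first array date the difference was -0.38 and within the second 0.40.

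Smo, the membrane protein that passes the signal on, was at 5.73 in knockout 2, 6.07 in knockout 5 and 5.80 on all 3 wild-type arrays. Here too knockout 2 lay below and knockout 5 above wild type, with a change of 0.11 (SE 0.114, 95% interval -0.22 to 0.44, limma adjusted p = 0.552). Under the 4 other scalings its change lay between 0.18 and 0.29, without passing the threshold.

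Hhip, the membrane protein that binds Hedgehog ligands and limits their action, was at 4.88 in knockout 2 and 5.09 in knockout 5. In wild type it was at 4.81, 4.62 and 4.62 in mice 3, 4 and 6. Both knockout arrays lay above all wild-type arrays, as in 13% of all genes tested. The change was 0.30 (SE 0.104, 95% interval 0.00075 to 0.60, unadjusted p = 0.0497 and limma adjusted p = 0.273), so it did not pass the test. It was 0.069 within the first array date and 0.47 within the second, and it stayed between 0.19 and 0.41 in all 17 alternatives in which it was tested. The exact permutation test over the 5 arrays gave p = 0.2.

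Gli3, the main repressor of the Gli factors, was at 4.50 in both knockout mice. Its signal was 4.11 in wild type 3 and 4.36 in wild types 4 and 6, so that both knockout arrays lay above all wild-type arrays. The change was 0.22 (SE 0.0966, 95% interval -0.054 to 0.50, limma adjusted p = 0.38), with 0.38 within the first array date and 0.15 within the second. It stayed between 0.14 and 0.30 in all 17 alternatives in which it was tested, without passing the threshold in any. The knockout values of Gli3 were 0.0049 apart and those of Gli1 0.011 apart, against a median gap of 0.29 between the knockout arrays over all genes.

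Gli2, the main activator among the Gli factors, was at 4.84 in knockout 2, 5.29 in knockout 5 and 5.27 on all 3 wild-type arrays. Knockout 2 lay 0.43 below wild type and knockout 5 0.022 above it. The change was -0.20 (SE 0.152, 95% interval -0.64 to 0.24, limma adjusted p = 0.413).

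In 3 of 7 members 1 knockout array lay below and the other above all wild-type values (Gli2, Ptch1 and Smo), as was so in 13.9% of all genes. Both knockout arrays lay below all wild-type arrays in 1 member, Gli1, and in 18.6% of all genes. Both lay above in 2 members, Gli3 and Hhip, and in 13% of all genes. All 3 wild-type arrays held the same value for 4 of 7 members (Ihh, Gli2, Ptch1 and Smo), and in 39.1% of all genes. RMA summarises the probes of a gene by median polish, which can return the same value for several arrays whose probes differ, so an SD of 0 does not show equal expression. With 1 knockout array left out, these members are tested against that spread of 0, so only changes are given for those fits. The change of Ptch1 was 0.40 without knockout 2 and -0.38 without knockout 5. The median change of the 7 members was 0.013, beside -0.0083 over all genes. The median was -0.30 within the first array date and 0.15 within the second.

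**Figure D2:**
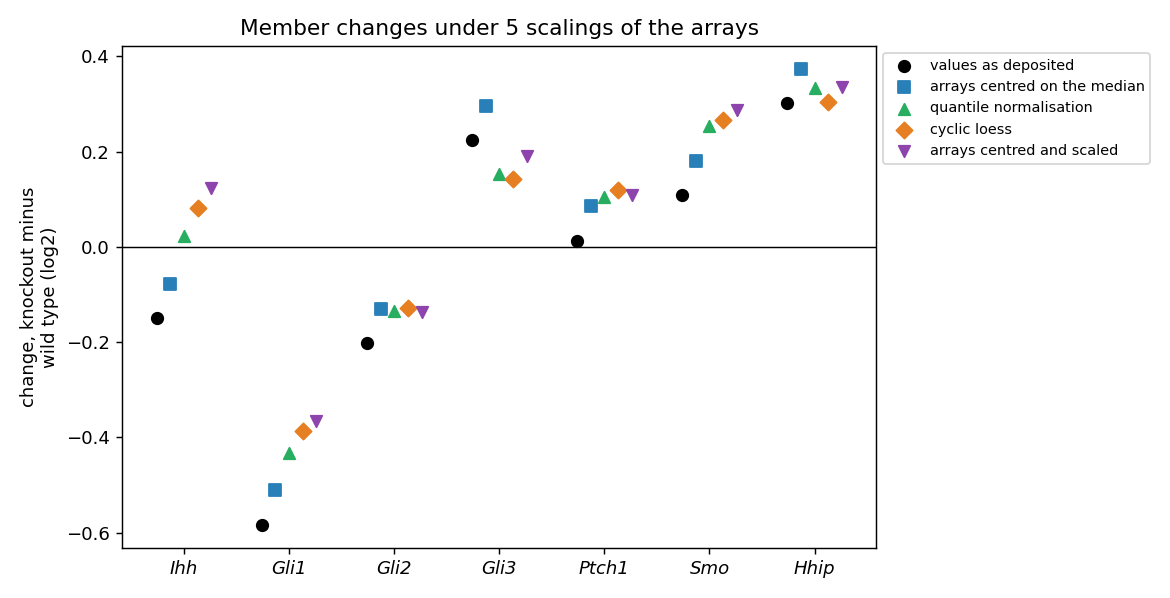
The change of each member, knockout minus wild type in log2 units (vertical axis), is plotted for the values as deposited and for 4 other scalings of the arrays (symbols). Gli1 lies below 0 throughout, from -0.58 to -0.37, Hhip and Gli3 lie above 0 throughout, and Ihh changes sign.

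A shift of a whole array cancels in a difference between genes of that array, while a difference in spread between arrays does not. Gli3 and Hhip were therefore also set against Gli1 within each array. These pairs were chosen after their values were seen, both share the lower Gli1 signal of the knockout arrays, and they were not tested. The difference Gli3 minus Gli1 was -1.35 and -1.33 in knockout 2 and 5, and -2.30, -2.10 and -2.05 in wild type 3, 4 and 6, a shift of 0.81. The difference Hhip minus Gli1 was -0.97 and -0.74 in the knockout arrays and between -1.84 and -1.60 in wild type, a shift of 0.88. Ptch1, Ihh and Gli2 set against Gli1 in the same way also gave upward shifts, of 0.60, 0.43 and 0.38. The shift of Gli3 against Gli1 was 0.53 by cyclic loess and 0.56 once each array was centred and scaled. The shift of Hhip against Gli1 was 0.69 and 0.70 under these scalings.

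The change of a gene went with its wild-type signal over the whole table. Genes with a wild-type signal from 4 to 5, where Gli3 and Hhip lie, had a median change of 0.038 (6004 genes). Those from 5 to 6, with Gli2, Ptch1 and Smo, had -0.095 (8182 genes). Those from 6 to 7, with Gli1 and Ihh, had -0.28 (2747 genes), of which 5.68% fell. The wild-type signal is part of the change itself, and the arrays differ in spread as given above. The part of this in the members' changes was not tested.

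**Figure D3:**
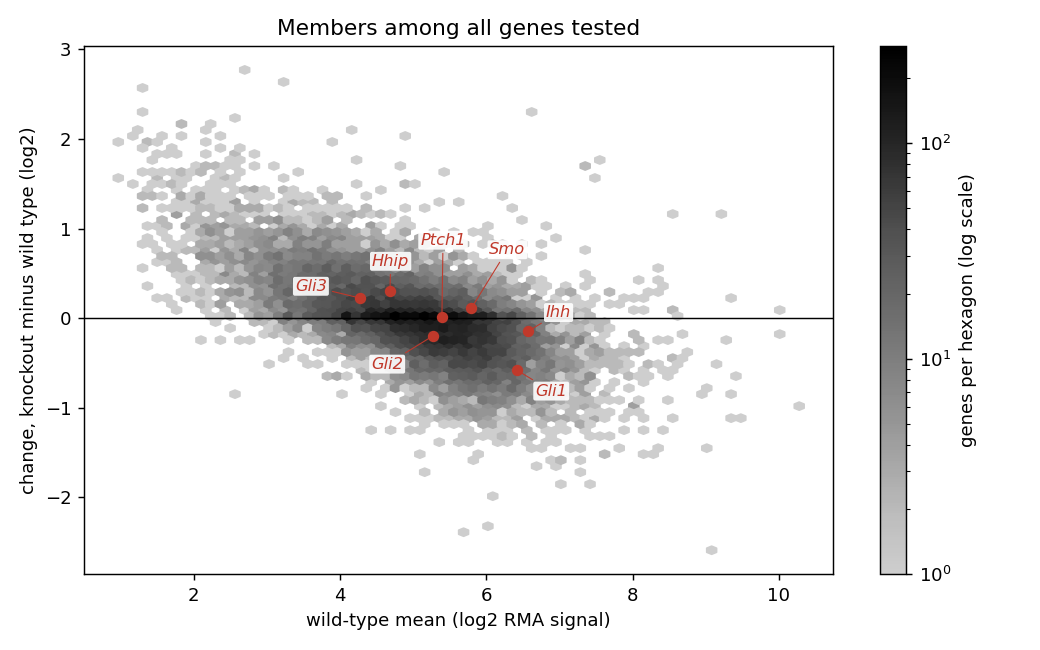
The change, knockout minus wild type in log2 units (vertical axis), is plotted against the wild-type mean signal in log2 units (horizontal axis) for the 19938 genes tested, shaded by the number of genes per hexagon on a log scale, with the 7 members in red. Genes of higher wild-type signal lie lower in the plot, and Gli1, at 6.42 and -0.58, lies below the median of -0.28 for genes with a signal from 6 to 7.

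The rest of the pathway was described with 82 other genes in 5 roles, of which 76 were measured. Of these 0 rose and 2 fell (2.63%, beside 2.18% of all genes), and 74 did not pass the test. Without adjustment 12 of the 76 had a limma p under 0.05, beside 3637 of the 19938 genes tested. Lower values in knockout were seen in 52 of the 76 (68.4%, beside 51.1% of all genes), with a median change of -0.089. That count was 44 by cyclic loess and 38 once each array was centred and scaled, where the median was -0.0015.

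Among co-receptors and related membrane proteins, 1 of 6 measured genes fell, beside 2.18% of all genes. Boc, a co-receptor that helps ligands bind Ptch1, was at 5.57 in both knockout mice and at 5.78, 5.80 and 5.78 in wild type 3, 4 and 6. The groups did not overlap, and the change was -0.22 (SE 0.0161, limma adjusted p = 0.0242), with -0.21 and -0.22 within the array dates. Cyclic loess left -0.075 (adjusted p = 0.523), centring the arrays -0.15 (adjusted p = 0.255) and quantile normalisation -0.083 (adjusted p = 0.49). Its adjusted p was 0.0704 with the array date as a block, and 0.129, 0.181 and 0.205 without wild type 3, 4 or 6.

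Gas1, another co-receptor, was at 6.13 and 5.84 in knockout and at 6.56, 6.67 and 6.59 in wild type. Both knockout arrays lay below wild type, but the change of -0.62 (SE 0.107) had a limma adjusted p of 0.0829. It was -0.41 by cyclic loess (adjusted p = 0.276) and -0.37 once each array was centred and scaled (adjusted p = 0.337). Without knockout 2 it was -0.77, and without knockout 5 it was -0.475. Gpc5, a glypican of the cell surface that binds Hedgehog ligands, had a change of -0.69 (SE 0.123, adjusted p = 0.0881). The knockout values of Gpc5, 4.77 and 4.44, were below the wild-type values of 5.25, 5.38 and 5.25. Its change was -0.85 without knockout 2 and -0.53 without knockout 5.

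On the ligand side, 0 of 11 genes passed the test and 6 were lower, beside 3.73% called and 51.1% lower among all genes. Shh, the sonic ligand, was at 6.22 and 5.65 in knockout and at 6.22 to 6.51 in wild type (change -0.42, limma adjusted p = 0.399). Its groups met at a shared value, that of knockout 2 and wild type 6, and its change was -0.70 without knockout 2 and -0.14 without knockout 5. Dhh, the desert ligand, was at 5.70 and 6.13 in knockout and at 5.30 to 5.70 in wild type (change 0.35, adjusted p = 0.399). Its change was 0.56 without knockout 2, 0.13 without knockout 5 and 0.22 without wild type 3. Scube1, of a family of secreted proteins that includes helpers of ligand release, had signals of 5.88 and 5.40 in the knockout mice and of 5.96 to 6.03 in wild type (change -0.35, adjusted p = 0.399). Knockout 5 was the lower array, and the change was -0.59 without knockout 2 and -0.10 without knockout 5.

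Around Smo and the cilium, 0 of 18 genes passed, beside 3.73% of all genes. Kif7, a ciliary kinesin that regulates the Gli factors, was at 6.77 and 6.57 in knockout and 6.98 to 7.09 in wild type. Its change of -0.34 (SE 0.0822, limma adjusted p = 0.148) shrank to -0.070 after cyclic loess. Without knockout 2 it was -0.44, and without knockout 5 it was -0.24. Ift52, a subunit of the intraflagellar transport complex, was at 5.03 and 4.47 in knockout and 4.04 to 4.20 in wild type (change 0.63, SE 0.197, adjusted p = 0.235). Its change was 0.35 without knockout 2 and 0.91 without knockout 5. Iqce, which anchors a ciliary complex that acts with Smo, was at 5.22 and 5.65 in knockout and at 6.10, 5.82 and 5.82 in wild type (change -0.48, adjusted p = 0.319). Its change was -0.26 without knockout 2 and -0.70 without knockout 5.

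Of 16 kinases and degradation factors that act on Gli proteins, 0 passed and 12 were lower, beside 51.1% lower among all genes. The count of lower genes was not taken by role under other scalings. The lowest p was that of the kinase Dyrk2, at 4.50 in knockout 2, 4.46 in knockout 5 and 4.57 in all wild-type mice (change -0.085, SE 0.0208, limma adjusted p = 0.153). Its wild-type values were identical, and its change was -0.11 without knockout 2 and -0.064 without knockout 5. Csnk1d, a casein kinase, was at 5.87 and 5.49 in knockout and at 6.05, 5.92 and 5.92 in wild type (change -0.28, adjusted p = 0.399). Its change was -0.47 without knockout 2 and -0.093 without knockout 5. Numb, an adaptor that promotes the degradation of Gli1, was at 4.14 in knockout 2, 4.73 in wild type 3 and 4.48 on the other 3 arrays (change -0.25, adjusted p = 0.399). Its change was -0.082 without knockout 2 and -0.42 without knockout 5.

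Among 25 measured genes known as targets or partners of the pathway in various tissues, 1 fell, beside 2.18% of all genes. Foxf1, a forkhead factor of mesenchyme, was at 5.54 in both knockout mice and at 5.68 on all 3 wild-type arrays (change -0.14, SE 0.0154, limma adjusted p = 0.0422). Its 3 wild-type values were identical, and a second row of the gene on the array gave -0.23. Gsk3b, with the same value on all 5 arrays, also had an SE of 0.0154, which limma draws from all genes. The SEs of Foxf1 (0.0154) and Boc (0.0161) lie close to it, so they say little about the spread of these genes between mice. The change was -0.0022 after cyclic loess, -0.0077 after quantile normalisation and 0.0099 once each array was centred and scaled. Its adjusted p was 0.104 with the array date as a block, and 0.18, 0.26 and 0.273 without wild type 3, 4 or 6.

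Pax1, a paired-box factor of the early skeleton, had a change of -0.29 (SE 0.0361, limma adjusted p = 0.0505), which turned to 0.0038 with arrays centred and scaled. It passed with dim genes left out (adjusted p = 0.0466). Its change was -0.32 without knockout 2 and -0.26 without knockout 5. Nr2f2, a nuclear receptor known as a Hedgehog target in other tissues, was at 4.57 and 4.71 in knockout and at 5.80, 5.49 and 5.49 in wild type. Its change of -0.96 (SE 0.128, limma adjusted p = 0.0562) did not pass the test as deposited. It passed with arrays centred on the median (-0.89, adjusted p = 0.0425) and with genes of identical wild-type values left out (adjusted p = 0.0379). Its change was -0.89 without knockout 2 and -1.03 without knockout 5. After cyclic loess it was -0.88 (adjusted p = 0.0646).

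**Figure D4:**
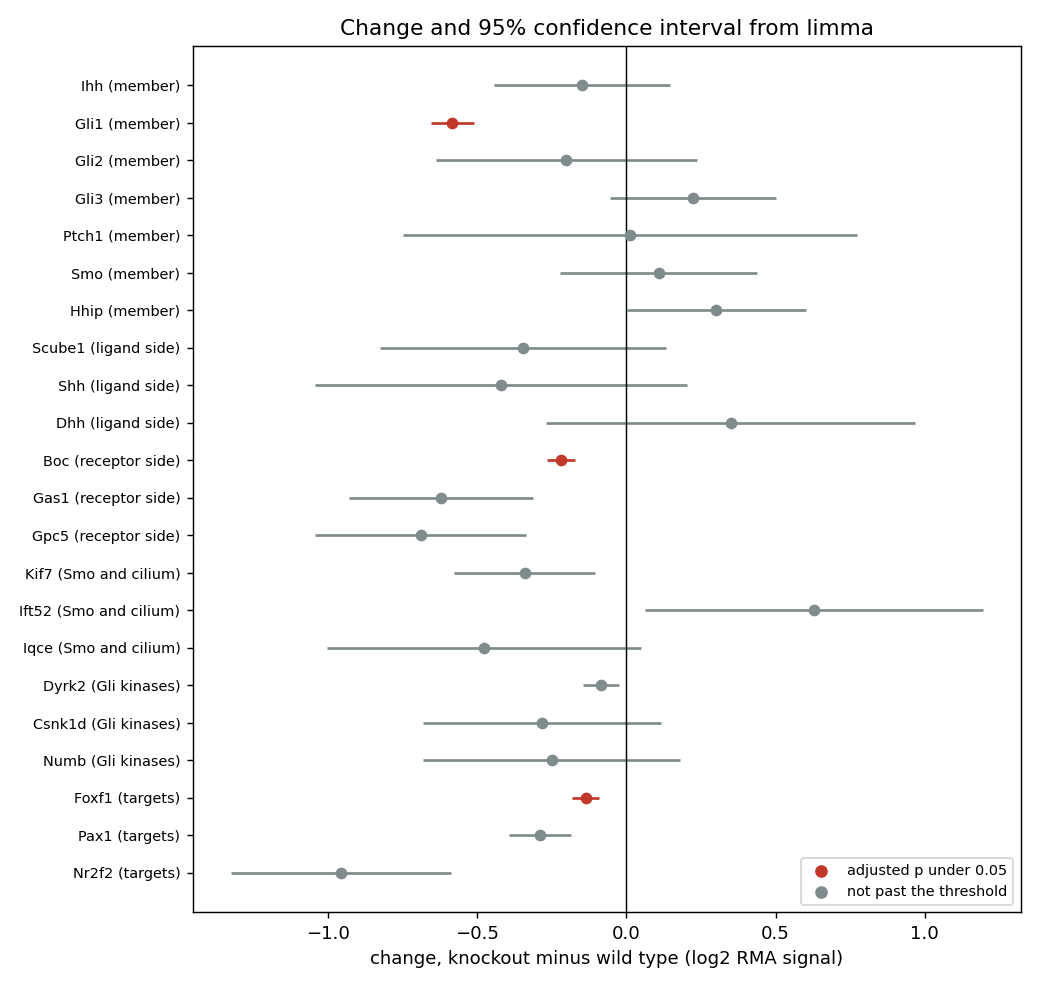
Points give the change of the 7 members and of the 15 genes named from the wider list, knockout minus wild type in log2 RMA signal (horizontal axis), and bars the 95% confidence interval from limma, with genes past the adjusted threshold in red. Gli1 (-0.58), Boc (-0.22) and Foxf1 (-0.14) are the genes in red, and the interval of Ptch1 is among the wide ones.

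The genes whose profile over the 5 arrays lay closest to that of Gli1, each taken as its difference from its own wild-type mean, were Mtfmt, Zfp746, Pcyt2, Eif4ebp2 and Cacna2d2. Their Euclidean distances from Gli1 were 0.04 to 0.047 log2 units over the 5 arrays, and 20 genes lay within 0.1. Mtfmt, the enzyme that formylates the mitochondrial initiator tRNA, was at 4.95 in both knockout mice and at 5.49, 5.59 and 5.49 in wild type. For Ihh, 664 genes lay within 0.1. The 5 at distance 0 that come first by name, Borcs6, Hs3st3a1, Ifnar1, Kndc1 and Mycbp2, each had a knockout 2 value 0.30 below 4 identical values. With a tolerance of 1e-05, 9 genes, Ihh included, shared that same step.

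Markers of the tissue and its neighbours were read beside these values. All 16 cartilage markers were measured, and all 16 were lower in knockout, beside 51.1% lower among all genes. Their wild-type means ran from 4.44 (Matn1) to 7.53 (Col9a2). Over all genes, 33.9% were lower at a wild-type signal from 4 to 5 and 65.4% from 5 to 6. From 6 to 7 it was 83.2%, and from 7 to 8 it was 87.5%. Of the 16 markers 3 fell past the threshold (Sox9, Comp and Col9a3), beside 2.18% of all genes. Both knockout arrays lay below all wild-type arrays in 8 of the 16, and in 18.6% of all genes. At least 1 knockout array lay within the wild-type range in 6, and in 10881 of the 19938 genes tested. The knockout arrays fell on either side of wild type in 2 (Acan and Chad), and in 13.9% of all genes. The mean signal of the 16 markers was 5.63 in knockout 2 and 5.90 in knockout 5, and 6.09 to 6.10 in wild type. Col2a1 encodes the defining cartilage collagen, and its signal was 7.07 in knockout 2, 6.96 in knockout 5 and 7.27 in all wild-type mice. The part of these lower cartilage markers in the change of Gli1 was not tested. In such bulk tissue, fewer cells of a type and less RNA per cell cannot be told apart.

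The 8 measured markers of prehypertrophic and hypertrophic chondrocytes, which hold Ihh itself, had 0 calls, beside 3.73% of all genes, and a median change of -0.036. Their mean signal was 5.50 and 5.68 in knockout and 5.57 to 5.64 in wild type. Pth1r, the receptor that takes part with Ihh in a feedback loop of the growth plate, was at 5.48 in knockout 2 and 5.54 in the other 4 arrays. Markers of osteoblasts (7 measured), the fibrous layer and tendon (8), skeletal muscle (8) and endothelium (4) held 0 calls, beside 3.73% of all genes. Their median changes were -0.048, -0.15, -0.059 and -0.14. Both knockout arrays lay below all wild-type arrays in 2, 3, 2 and 2 of these markers, and in 18.6% of all genes. Both lay above in 0 of each list, and in 13% of all genes. Among 6 marrow and blood markers 5 were higher, as were 8493 of the 19938 genes tested, and 0 passed, with a mean signal of 5.07 and 5.13 in knockout and 4.79 to 4.88 in wild type. Both knockout arrays lay above all wild-type arrays in 3 of these 6 markers, and in 13% of all genes. Their wild-type means ran from 3.46 (Ly6g) to 5.54 (Elane). Over all genes the median change was 0.33 at a wild-type signal from 3 to 4, 0.038 from 4 to 5 and -0.095 from 5 to 6. Among 5 adipocyte markers 1 fell, Cidec, beside 2.18% of all genes, and the median change was 0.030. No marker is at 0 on this scale, and detection above background was not called here, so a low signal does not show that a gene was or was not expressed.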

How the data were processed

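Total RNA of condylar cartilage was hybridised to Affymetrix mouse gene 1.0 ST arrays, per the labels. The deposited table holds log2 values that the authors computed with Affymetrix Expression Console and RMA, per the submitters' processing notes; of versions and genome build it can only be said: not given in the sources used here. It has 35556 rows, of which 21789 have 1 gene symbol in the platform annotation, 1621 several and 12146 none. Symbols were updated by gene identifier to GRCm38.p6 (19856 of 19938 genes matched). A gene with several rows was represented by the brightest.

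Knockout was compared with wild type with limma 3.58.1 in R 4.3.3 (lmFit, eBayes, two-sided, Benjamini-Hochberg over all genes, threshold 0.05). The fit was also run on simulated data with independent noise on every value. Those data lack the identical values of these arrays, so that run does not check the fit for them. No count or detection depth exists for arrays, whose number limits the precision. The groups share no replicate number. The members and lists were chosen with earlier results of these data known. Genes named were the members, genes of the wider list past the threshold, the 3 of lowest p in each role, the 5 closest profiles to Gli1 and Ihh, and Ddr1; others were named after their values were seen. Alternatives covered the array date, scaling, rows, filters, variance model, array weights and each array left out. Array weights stopped before convergence.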

Additional observations from a re-analysis of the deposited data

How the results depend on the processing

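Of the 7 members, the number past the threshold was 1 as deposited and 0 with the array date as a block, quantile normalisation, cyclic loess, arrays centred and scaled, or array weights, with 1, 3, 3, 3 and 0 members at an unadjusted limma p under 0.05. It was 0 without wild type 3, 4 or 6. Without knockout 2 or 5, the lone knockout array left was assumed to vary like wild type, whose spread is 0 in 4 members. Counts of genes called in those fits are therefore not read as results. The upper ends of the 2 ranges of calls given below, with an array left out, come from the fit without knockout 5. Without wild type 3, 4 or 6, calls were 0 over all genes and 0 in the wider list. The filter on dim genes left out Gli3 and Hhip, and the filter on identical wild-type values left out Ihh, Gli2, Ptch1 and Smo. Over all genes the 744 calls became 0 with the date block, quantile normalisation, cyclic loess or array weights (3829, 3761, 3919 and 1917 at an unadjusted limma p under 0.05), 177 with arrays centred and scaled, 446 without dim genes and 261 without moderation, and ranged from 0 to 9999 with an array left out. Rises were 41.5% of calls as deposited, 12.3% without dim genes (55 rose and 391 fell), 54.0% with arrays centred on the median, 54.8% with all rows tested and 57.1% with arrays centred and scaled. The wider list's 2 calls became 0 with the date block, quantile normalisation, cyclic loess, arrays centred and scaled, array weights or all rows tested, 1 with arrays centred on the median, rows averaged or identical wild-type values left out, and ranged from 0 to 38 with an array left out.

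Signs turned for Ihh (0.022, 0.082 and 0.12) and Ddr1 (0.011, 0.035 and 0.068) under quantile normalisation, cyclic loess and arrays centred and scaled, and for Foxf1 (0.0099) and Pax1 (0.0038) under the last of these. Array weights gave -0.18 for Ptch1. With an array left out, changes ranged from -0.38 to 0.40 for Ptch1, from -0.060 to 0.28 for Smo and from -0.43 to 0.022 for Gli2, the ends being those without knockout 5 and without knockout 2. The causes were not tested. No paired analysis was possible because the groups share no replicate number.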
